A study of Mus musculus with 45 samples.

Results

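Established induced myogenic progenitor cells (iMPCs), grown as bulk cultures, were compared with fibroblast cultures on day 10 of the reprogramming that gives rise to such cells. The rule took the 3 bulk iMPC libraries and the 3 libraries of day 10 with MyoD and F/R/C, 6 of the 45 libraries of the series. All cells came from mice with the genotype Tg:Pax7-nGFP/C57BL6;DBA2, in which a nuclear GFP reports Pax7, and all were bulk harvests by trypsin with no sorting. The day 10 cultures were mouse embryonic fibroblasts (MEFs) that had a doxycycline-inducible MyoD and had received doxycycline with F/R/C for 10 days, and their label gives them as muscle fibres with progenitors. The iMPCs were derived with 13 days of doxycycline and F/R/C and then kept in medium with F/R/C, as far as the terse label can be read, and the design text calls them clones that no longer depend on doxycycline. The groups thus shared genotype and F/R/C and differed in doxycycline, age of the culture and derivation, and these cannot be told apart. The labels do not say how many clones or passages the iMPC libraries represent.

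MyoD is the transcription factor that can turn fibroblasts into muscle cells, and F/R/C are small molecules that the labels do not spell out. In the published iMPC method they are forskolin, which raises cAMP, RepSox, an inhibitor of the TGF-beta receptor, and an inhibitor of GSK3 that activates Wnt signalling. In muscle, Pax7 marks stem cells, Myf5 and MyoD mark committed progenitors, and myogenin leads into fusion and the making of the contractile apparatus. An iMPC culture holds progenitors next to multinucleated fibres that form from them. In such bulk samples, fewer cells of a type and less RNA per cell cannot be told apart.

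The bulk iMPC libraries were deeper than all libraries of day 10 with F/R/C, at 33.2 to 36.3 M estimated reads against 18.8 to 26.7 M. They also differed in the balance between GC-rich and GC-poor genes, measured with genes in 5 equal groups by GC content, as the median log2 CPM of the group with the highest GC content minus that of the lowest. CPM is the read count scaled to a library size that TMM adjusts. This difference was 0.0494, -0.0077 and 0.03 in the iMPC libraries and 0.958, 0.882 and 1.05 in the day 10 libraries. Bulk myoblast replicate 2, the other library of that depth, was at -0.104, while the 41 shallower libraries ran from 0.291 to 1.54. Depth, GC balance and group cannot be told apart here, so each call is also given from a fit in which a smooth trend on GC content was removed from every library. Replicate 3 of both groups carried the Y-linked transcripts and the other 4 libraries carried Xist, so the sexes were balanced between the groups.

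**Figure D1:**
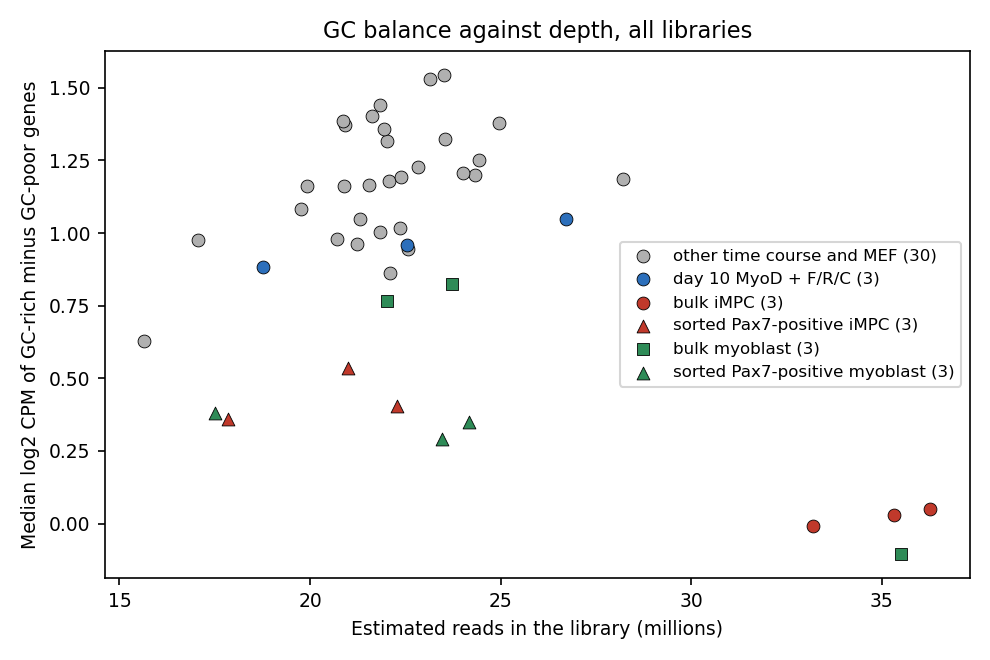
GC balance of each of the 45 libraries (median log2 CPM of the GC-richest of 5 gene groups minus the GC-poorest, vertical axis) against its estimated reads in M (horizontal axis). The 3 bulk iMPC libraries and 1 bulk myoblast library lie at the right and at the bottom, and the 3 day 10 libraries with MyoD and F/R/C lie at 0.882 to 1.05.

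Of 17325 genes tested, 1658 (9.57%) were called between the groups, that is, they had an adjusted p under 0.05 in edgeR's quasi-likelihood test and differed by 1 or more on the log2 scale. Higher in iMPCs were 577 genes (3.33%), and lower were 1081 (6.24%). With the GC trend removed, 1011 genes (5.84%) were called, 430 higher (2.48%) and 581 lower (3.35%). Both fits shared 331 of the higher and 538 of the lower genes, and none was called in opposite directions. The correction took away higher calls among GC-poor genes and lower calls among GC-rich ones. Higher calls went from 176 to 62, 154 to 68 and 120 to 80 in the 3 groups of lower GC content, and from 90 to 99 and 37 to 121 in the other two. Lower calls went from 603 to 144 and from 197 to 130 in the 2 groups of highest GC content, from 67 to 96 in the GC-poorest, and from 97 to 103 and 115 to 106 between them. In the GC-richest of the 5 groups (55.6% to 75.5% GC) 17.4% of genes were called lower and 1.07% higher before the correction, against 4.16% and 3.50% after it. In the GC-poorest (28.3% to 44.2% GC) 5.08% were called higher and 1.94% lower before, against 1.79% and 2.77% after. Below, a gene named as higher or lower was called in the fit without the correction, and the text says where the correction ended the call. Counts of called members in each list are to be read beside these shares of all genes tested. Where 3 values follow each other, they stand for replicates 1, 2 and 3.

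**Figure D2:**
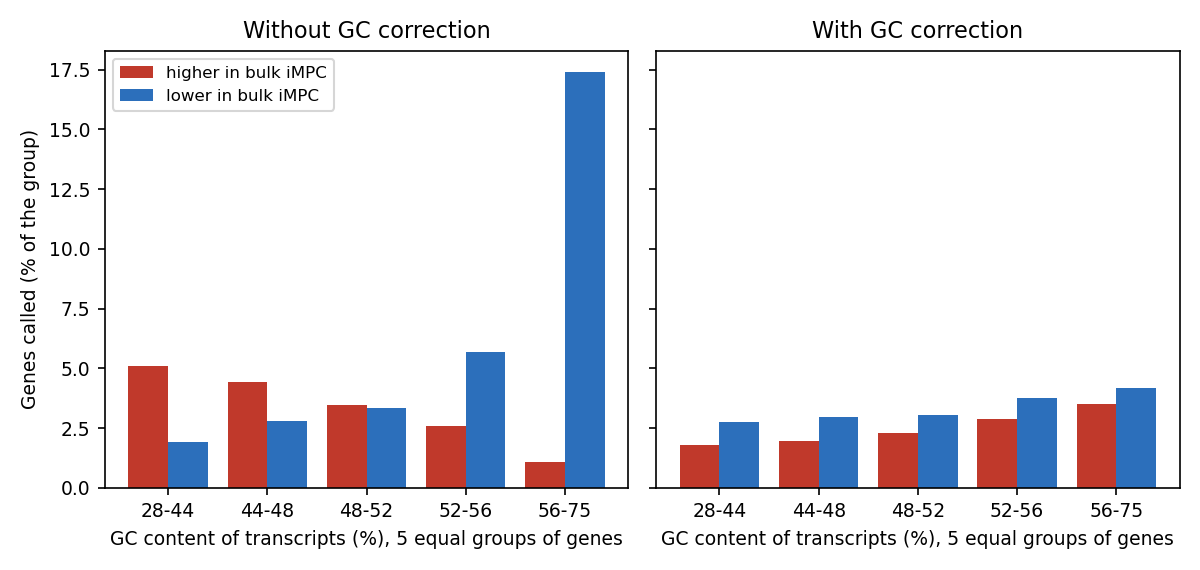
Share of the genes in each of 5 equal groups by GC content (horizontal axis, range in percent) that was called higher or lower in bulk iMPCs (vertical axis, % of the group), without and with the GC correction. Lower calls made up 17.4% of the GC-richest group without the correction and 4.16% with it.

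Genes of the hypoxia response were the group with the largest share of calls among the 40 lists. Cells that lack oxygen stabilise the HIF factors, which induce genes that shift metabolism from respiration to glycolysis, limit mitochondrial mass, regulate pH and tune the oxygen sensors themselves. Of the 16 hypoxia response genes, 12 were higher in iMPCs (3.33% of all genes tested were) and none was lower, and their median log2 fold change was 1.78 against 0.034 over all genes tested. With the GC correction 11 were called, and the median was 1.70. All 16 fold changes were positive, and in 15 genes the 3 and 3 libraries did not overlap, as in 36.7% of all genes tested.

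Carbonic anhydrase Car9, which regulates pH at the cell surface, stood at 51.6, 48.6 and 60.8 CPM in iMPCs and at 0.437, 0.779 and 6.22 CPM on day 10. Every iMPC library was thus well above every day 10 library, and replicate 3 was the highest of the day 10 cultures (adjusted p 0.0011, log2 fold change 4.42 with an SE of 0.93). Bnip3, a mediator of mitochondrial removal, had 507, 467 and 388 CPM in iMPCs and 39.9, 41.7 and 105 CPM on day 10 (log2 fold change 2.87, SE 0.53). Pdk1, the kinase that keeps pyruvate out of the mitochondrial oxidation, had 269, 218 and 215 CPM against 28.5, 29.0 and 67.8 CPM (log2 fold change 2.48, SE 0.53). In both, replicate 3 again stood above the other day 10 cultures without reaching the iMPCs. Ak4, a mitochondrial adenylate kinase, had 206, 163 and 151 CPM against 15.03, 14.2 and 27.0 CPM (log2 fold change 3.20, SE 0.65). Ndrg1, a stress-induced gene, had 84.8, 105 and 84.4 CPM against 8.63, 12.5 and 25.2 CPM (log2 fold change 2.56, SE 0.48).

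The oxygen sensors moved in the same direction as the other targets. Egln1, a prolyl hydroxylase that marks HIF for degradation, had 110, 109 and 95.7 CPM in iMPCs and 42.1, 30.5 and 38.1 CPM on day 10 (adjusted p 3.2e-05, log2 fold change 1.51 with an SE of 0.23). Its relative Egln3 had 273, 286 and 210 CPM against 53.9, 46.4 and 113 CPM (log2 fold change 1.85, SE 0.41). The collagen prolyl hydroxylases P4ha1 and P4ha2 rose by 1.78 and 1.45 on the log2 scale (SE 0.30 and 0.42). The mitochondrial protein Higd1a rose by 1.78, the Myc antagonist Mxi1 by 1.95 and the histone demethylase Kdm3a by 1.13 on the same scale. For Kdm3a the GC correction left a log2 fold change of 0.89, under the minimum, at an adjusted p of 0.0016. The 4 members not called were Vegfa, the angiogenic growth factor (189, 181 and 183 CPM against 97.6, 87.0 and 101 CPM, adjusted p 0.058), Ankrd37, Adm and Ddit4. Reads of P4ha2, Vegfa and Adm were divided in part with another gene. The call of P4ha2 was lost without iMPC replicate 2 and without day 10 replicate 1 or 2.

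Part of the glycolysis list was also higher. Of 18 members, 7 were called higher (3.33% of all genes tested were) and none lower, and 10 were called with the GC correction. All 18 fold changes were positive with a median of 0.95. The glucose transporter Slc2a3 had 77.9, 55.3 and 51.0 CPM in iMPCs and 5.76, 3.17 and 7.10 CPM on day 10 (adjusted p 0.0031, log2 fold change 3.52 with an SE of 0.84). Phosphofructokinase Pfkp had 393, 433 and 292 CPM against 61.1, 46.3 and 70.7 CPM (log2 fold change 2.65, SE 0.37). Both genes thus separated the groups with no overlap. Pgk1, which makes ATP in the pathway, had 1584, 1527 and 1491 CPM against 605, 603 and 681 CPM (adjusted p 8.7e-06, log2 fold change 1.28 with an SE of 0.17). Lactate dehydrogenase Ldha had 1471, 1637 and 1240 CPM against 641, 600.4 and 710 CPM (log2 fold change 1.16, SE 0.25). These abundant enzymes separated the groups as well. Hexokinase Hk1 rose by 1.33, triosephosphate isomerase Tpi1 by 1.57 and aldolase Aldoc by 2.76 on the log2 scale, the last without a call when day 10 replicate 1 or 2 was left out. Gapdh, at 4153, 4228 and 4375 CPM against 3280, 3495 and 4210 CPM, overlapped between the groups and was not called. The GC correction added Slc2a1, Pfkl and Pkm to the calls. Reads of Slc2a3, Pkm, Gapdh and 5 other members were divided in part with another gene.

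**Figure D3:**
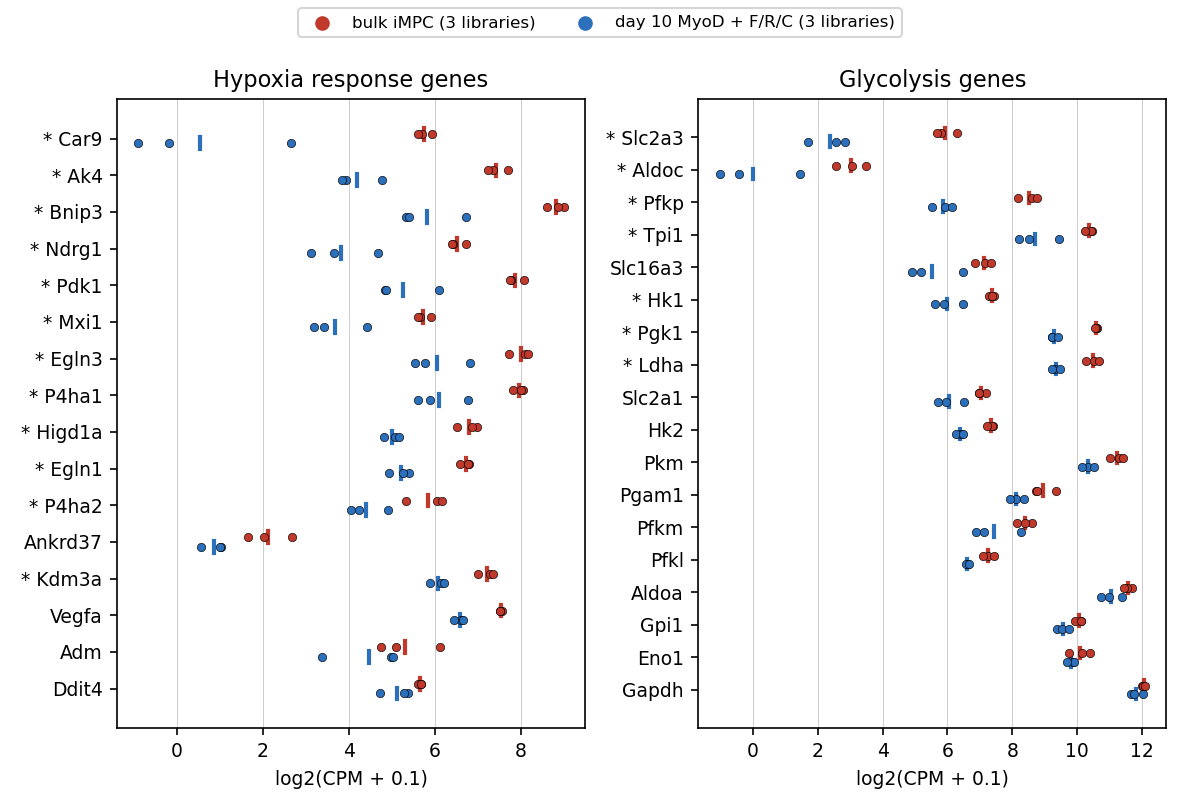
Levels of the 16 hypoxia response genes and the 18 glycolysis genes in the 3 bulk iMPC and 3 day 10 libraries, as log2(CPM + 0.1) on the horizontal axis, 1 point per library and a bar at the group mean. An asterisk marks the 12 and 7 genes called higher without the GC correction, and in nearly all rows the iMPC points lie to the right.

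Over the whole hypoxia list the mean log2 CPM of the hypoxia response genes was 6.62, 6.69 and 6.40 in iMPCs, above every other library shown in the plot along the reprogramming days. It was 4.37, 4.21 and 5.12 on day 10, and MEFs ranged from 4.31 to 4.54. Day 2 with F/R/C had 3.57 to 3.91, the lowest group, and days 4 to 8 ranged from 3.77 to 5.22. The day 10 level thus lay within the range of the earlier days. Sorted Pax7-positive iMPCs, which are shallower libraries, had 5.91, 4.99 and 4.66. For the glycolysis genes the mean log2 CPM was 8.79, 8.83 and 8.61 in iMPCs and 7.33, 7.22 and 7.83 on day 10, and sorted iMPCs had 8.67, 7.71 and 7.60. On both lists sorted iMPC replicate 1 lay nearest to the bulk iMPCs, and replicate 3 was the highest of the libraries with F/R/C on days 6, 8 and 10. Oxygen, density and medium change of the cultures are not given in the labels, and their part was not tested.

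**Figure D4:**
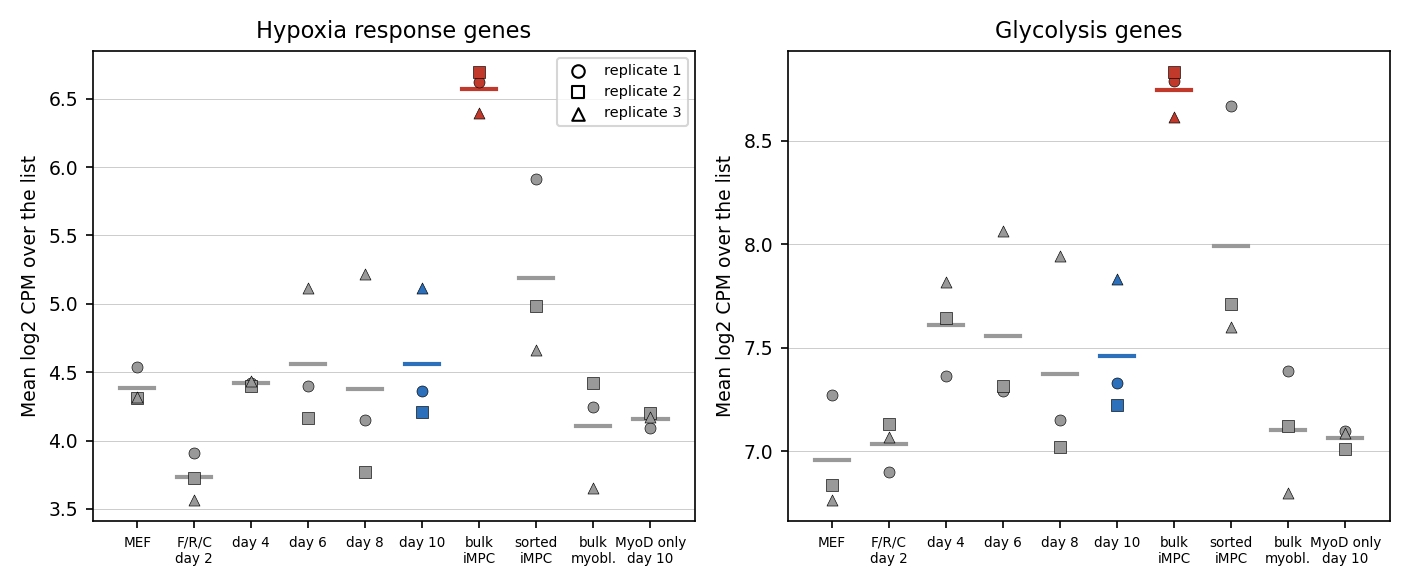
Mean log2 CPM over the hypoxia and the glycolysis list (vertical axes) in each library of 10 groups (horizontal axis), with symbols for replicate numbers and a bar at the group mean. Bulk iMPCs (red) are at 6.40 to 6.69 on the hypoxia list and day 10 with F/R/C (blue) at 4.21 to 5.12.

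The letters ACGTG are 1 form of the core of the element that HIF binds, and other forms were not searched. Promoters of the 2 lists were searched for ACGTG on both strands, from 250 bases before to 50 after each RefSeq start on GRCm38.p6. A CACGTG holds the letters on both strands and counts as 2. At least 1 promoter of 12 of 15 matched hypoxia response genes (80%) held them, as did 12 of 17 matched glycolysis genes (70.6%). The share was 27.9% among the 12455 tested genes that matched and 21.8% among all 27025 genes with a promoter, and 3 of 13 matched cholesterol synthesis genes (23.1%) held them. Genes with several starts have more windows to match. A match describes these letters and is no evidence of binding, and a window without one can hold another form of the core. The hypoxia list was made of known hypoxia response genes, so its share reflects that choice and is no result of these libraries. Among glycolysis genes not called, some held a match, such as Gapdh and Hk2, and others did not, such as Eno1. The promoters of 4 genes that were called in both fits and hold a match show how the letters are placed, with each match in capitals. Pdk1, Pfkp and Tpi1, also called in both fits, held no match in any window, nor did the other start of Ldha. Car9 lies at chr4:43506776-43507075 on the plus strand (1 match), Bnip3 at chr7:138909457-138909756 on the minus strand (2), Ldha at chr7:46845554-46845853 on the plus strand (5) and Pgk1 at chrX:106186850-106187149 on the plus strand (2).
Car9: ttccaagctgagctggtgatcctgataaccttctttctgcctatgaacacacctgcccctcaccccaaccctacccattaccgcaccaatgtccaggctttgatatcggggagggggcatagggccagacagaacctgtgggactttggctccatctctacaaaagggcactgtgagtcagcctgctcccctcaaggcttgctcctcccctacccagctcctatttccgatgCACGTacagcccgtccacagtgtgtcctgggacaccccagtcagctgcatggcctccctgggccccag
Bnip3: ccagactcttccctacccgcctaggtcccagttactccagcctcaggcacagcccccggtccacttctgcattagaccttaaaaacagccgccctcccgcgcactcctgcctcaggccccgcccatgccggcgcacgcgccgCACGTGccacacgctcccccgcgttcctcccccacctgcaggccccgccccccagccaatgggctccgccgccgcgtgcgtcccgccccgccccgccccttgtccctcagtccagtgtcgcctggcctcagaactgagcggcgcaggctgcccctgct
Ldha: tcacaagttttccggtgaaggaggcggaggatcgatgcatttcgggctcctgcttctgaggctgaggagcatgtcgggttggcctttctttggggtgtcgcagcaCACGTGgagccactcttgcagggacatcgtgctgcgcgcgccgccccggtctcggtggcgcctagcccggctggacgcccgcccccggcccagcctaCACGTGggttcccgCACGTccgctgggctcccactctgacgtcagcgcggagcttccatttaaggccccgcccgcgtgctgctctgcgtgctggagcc
Pgk1: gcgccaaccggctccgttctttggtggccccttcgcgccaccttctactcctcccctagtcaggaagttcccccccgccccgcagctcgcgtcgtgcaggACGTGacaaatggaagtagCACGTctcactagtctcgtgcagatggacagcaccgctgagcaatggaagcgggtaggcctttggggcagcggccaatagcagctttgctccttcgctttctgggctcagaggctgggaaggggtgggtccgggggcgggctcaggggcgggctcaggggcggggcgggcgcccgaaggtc

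Of the myogenic regulators, 4 were lower, 1 was higher and 13 of 18 were not called, in both fits alike. Without the correction 6.24% of all genes tested were lower and 3.33% higher. Myod1 (chromosome 7, 46376474 to 46379099), whose transgene was under doxycycline on day 10, had 125, 92.9 and 120 CPM in iMPCs and 607, 992 and 778 CPM on day 10 (log2 fold change -2.82 with an SE of 0.60, adjusted p 0.0012). With the GC correction it fell by 2.25 on the log2 scale. Transcripts of the transgene and of the gene itself were not told apart. Myf5, the regulator closest to the stem cell state, went the other way, with 9.75, 22.0 and 53.9 CPM in iMPCs and 1.91, 3.41 and 5.51 CPM on day 10 (adjusted p 8.2e-04, log2 fold change 2.98 with an SE of 0.56). The iMPC libraries spread widely among themselves and did not overlap with the day 10 libraries. Sorted Pax7-positive iMPCs averaged 43.9 ± 19.3 CPM of Myf5 (SD, n = 3).

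Pax7 (chromosome 4, 139737062 to 139833528) had 64.5, 39.4 and 81.3 CPM in iMPCs and 75.7, 67.9 and 47.1 CPM on day 10. The groups overlapped, and the 95% interval of the log2 fold change ran from -0.91 to 0.83. Myog had 601, 471 and 673 CPM against 1086, 1391 and 861 CPM, with no overlap but no call (adjusted p 0.40, log2 fold change -0.94 with an SE of 0.75). Pitx3, a homeobox factor of differentiating myoblasts, had 2.41, 1.52 and 3.71 CPM against 36.9, 36.3 and 30.5 CPM (log2 fold change -3.76, SE 0.49). It fell by 2.08 with the GC correction, and its transcripts hold 67.9% GC. Sorted iMPCs had 29.8 ± 7.66 CPM of Pitx3 (SD, n = 3). Id1 and Id3, inhibitors that bind the partners of MyoD, were lower. Id1 had 18.8, 13.6 and 14.4 CPM against 77.7, 51.8 and 38.4 CPM (log2 fold change -1.84, SE 0.34), and Id3 fell by 1.57 on the log2 scale.

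Among 20 satellite cell and progenitor genes, 2 were higher (3.33% of all genes tested were), and neither call held with the GC correction. Sdc4, a heparan sulphate proteoglycan of satellite cells, had 251, 164 and 170 CPM in iMPCs and 78.9, 73.1 and 136 CPM on day 10 (log2 fold change 1.02, adjusted p 0.024), and its call was also lost without iMPC replicate 1 and without day 10 replicate 1 or 2. Vcam1, an adhesion molecule, had 56.2, 290.0 and 54.4 CPM against 63.2, 18.3 and 20.1 CPM, so that iMPC replicate 2 stood apart and the others overlapped with day 10. Its call was lost without that replicate and without day 10 replicate 2 or 3. The cadherin Cdh15 and the receptor Notch3 lay lower in every iMPC library than in any day 10 library but were not called (adjusted p 0.17 and 0.11). Reads of Sdc4 and Vcam1 were divided in part with another gene.

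**Figure D5:**
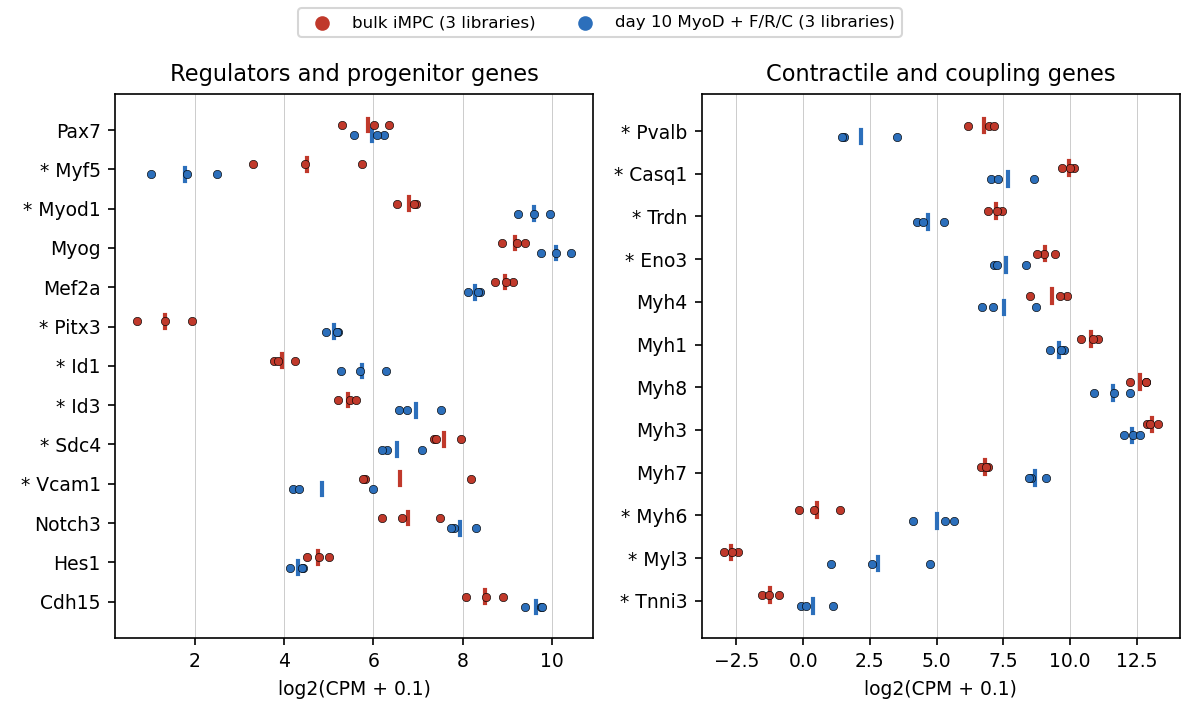
Levels of 13 regulators and progenitor genes and of 12 contractile and coupling genes in the 3 bulk iMPC and 3 day 10 libraries, as log2(CPM + 0.1) on the horizontal axis, 1 point per library and a bar at the group mean. An asterisk marks genes called without the GC correction, such as Myod1 and Myl3 (lower in iMPCs) and Myf5 and Pvalb (higher). The genes plotted were chosen after their values were seen.

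Genes of fast and adult fibres tended to higher values than on day 10. The mean log2 CPM of this list was 8.773 to 9.288 in iMPCs and 7.256 to 8.43 on day 10. Days 4 and 6 with F/R/C had 8.396 to 9.023 and 8.435 to 8.868, and so overlapped with the iMPCs. Of 18 fast and adult contractile genes, 3 were higher in both fits and none was lower. Without the correction 3.33% of all genes tested were higher and 6.24% lower. Of the 18, 16 had a positive fold change, with a median log2 fold change of 0.95 against 0.034 over all genes tested. Parvalbumin (Pvalb), the calcium buffer of fast fibres, had 125, 140 and 71.6 CPM in iMPCs and 2.78, 2.63 and 11.2 CPM on day 10 (adjusted p 3.6e-04, log2 fold change 4.33 with an SE of 0.81). Sorted Pax7-positive iMPCs had 1.62 ± 0.998 CPM of it (SD, n = 3). Casq1, which stores calcium in the sarcoplasmic reticulum, had 1131, 1012 and 830.2 CPM against 132, 156 and 402 CPM (log2 fold change 2.11, SE 0.70), and its call was lost in 4 of 6 fits that each left out a library. Eno3, the muscle enolase, rose by 1.40 on the log2 scale (SE 0.34). Of the fast myosin heavy chains, Myh4 had 953, 357 and 780 CPM against 138, 105 and 423 CPM and Myh1 had 2087, 1870 and 1349 CPM against 875, 816 and 606 CPM. Neither was called (adjusted p 0.14 and 0.33), and reads of both were divided in part with another gene. Day 10 replicate 3 was the highest of its group for Pvalb, Casq1, Eno3 and Myh4.

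Of 18 slow and cardiac contractile genes, 3 were lower (6.24% of all genes tested were) and none higher, with a median log2 fold change of -0.40. Myl3, the slow and ventricular light chain, had 0.082, 0.056 and 0.027 CPM in iMPCs, at most 3 reads per library, and 1.95, 5.94 and 27.0 CPM on day 10. Taking 3 reads per library as the floor, Myl3 was at least 141-fold lower than the day 10 mean (adjusted p 4.0e-05). Replicate 3 raised that mean most. Myh6, the atrial myosin, had 0.794, 1.21 and 2.47 CPM against 17.3, 50.2 and 39.6 CPM (log2 fold change -4.57, SE 1.12). Both genes were low in sorted iMPCs as well, at 0.032 ± 0.028 and 0.852 ± 0.67 CPM. Tnni3, the cardiac troponin I, was lower at about 1 CPM and lost its call with the GC correction, without iMPC replicate 1 or 2 and without day 10 replicate 3. Myh7, the slow myosin, had 100.3, 121 and 115 CPM against 372, 542 and 350.4 CPM without a call (adjusted p 0.089). Reads of Myh6 and Myh7 were divided in part with another gene. None of 6 embryonic and neonatal genes and none of 16 sarcomere scaffold genes was called, with 13 of the latter positive.

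Among 16 genes of excitation-contraction coupling and ion channels, 2 were higher. One was Trdn, which anchors calsequestrin at the release channel, with 174, 123 and 153 CPM in iMPCs and 18.9, 22.6 and 39.1 CPM on day 10. It separated the groups without overlap, and the GC correction ended its call, as did leaving out iMPC replicate 1 or day 10 replicate 1 or 2. At the synapse, Chrne, the adult subunit of the acetylcholine receptor, had 0.931, 1.16 and 0.807 CPM in iMPCs and at most 1 read in any day 10 library, at least 7.79-fold higher by the floor of 3 reads. Rapsn and Dok7, which cluster the receptor, were lower (log2 fold change -1.53 and -1.44), and neither call held with the GC correction. The call of Dok7 held in 1 of the 6 fits that each left out a library, the one without day 10 replicate 3. Of 9 fusion genes tested, Myof, a membrane repair protein, was higher (log2 fold change 1.30, SE 0.28), without a call when iMPC replicate 2 was left out. The fusion protein gene Mymk overlapped between the groups. In the nuclear respiratory chain, 1 of 19 genes was higher, the muscle form Cox7a1 (9.31, 8.26 and 7.37 CPM against 0.676, 1.51 and 2.68 CPM, without a call when day 10 replicate 1 was left out), and none of 13 mitochondrial genes was called.

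Part of the cholesterol synthesis genes was called lower, but none was once GC content was corrected. Of 20 cholesterol synthesis genes, 4 were called lower (6.24% of all genes tested were) and none higher. Of their fold changes 19 were negative, and the median log2 fold change was -0.48. Mevalonate kinase Mvk had 9.20, 8.32 and 7.93 CPM in iMPCs and 21.7, 25.7 and 21.4 CPM on day 10 (adjusted p 4.3e-05, log2 fold change -1.43 with an SE of 0.22). Srebf2, the master regulator of the pathway, had 150, 129 and 168 CPM against 335, 371 and 274 CPM (log2 fold change -1.13, SE 0.20). In both genes every iMPC library was below every day 10 library. Mvd fell by 1.42 on the log2 scale. Of 12 fatty acid synthesis genes 1 was called lower, fatty acid synthase Fasn, which fell by 1.47. In that list 7 fold changes were negative and 5 positive. With the GC correction none of these 4 reached the minimum fold. Their log2 fold changes were then -0.80 for Mvk, -0.71 for Srebf2, -0.81 for Mvd and -0.98 for Fasn, with adjusted p from 0.006 to 0.040. The median of the cholesterol list was -0.57 with the correction. Mvk was also among the 270 genes whose level in the 4 deepest libraries lay wholly outside that in the other 41.

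Signalling genes changed one by one, where 3.33% of all genes tested were higher and 6.24% lower. Of 12 Wnt target genes tested, Nkd1, a feedback inhibitor, was lower in both fits, with 13.2, 10.5 and 12.5 CPM against 33.0, 40.2 and 52.1 CPM (log2 fold change -1.79, SE 0.50). Lgr6, a receptor for R-spondin, was lower and Dkk2, a secreted antagonist, was higher, and neither held with the correction. Dkk2 had 3.18, 85.5 and 2.90 CPM against 1.35, 1.51 and 6.78 CPM, and its log2 fold change was -0.10 without iMPC replicate 2. The call was also lost without day 10 replicate 1 or 2, and that of Lgr6 without iMPC replicate 1 or 3 or day 10 replicate 1 or 2. In the myostatin, activin and BMP group the activin receptor Acvr2b and the ligand Bmp7 were lower (log2 fold change -1.53 and -2.61). Both lost their call without iMPC replicate 2, and Bmp7 also without day 10 replicate 2. In the TGF-beta group Tgfbi was higher and Smad6 lower, both without a call after the correction. Tgfbi also lost its call without iMPC replicate 1 or 2 or day 10 replicate 1 or 2, and Smad6 without iMPC replicate 1. Among 15 genes of the cAMP response, Areg, a ligand of the EGF receptor, was higher (12.3, 3.19 and 5.14 CPM against 1.47, 0.779 and 1.13 CPM), without a call when iMPC replicate 1, the library with the highest value, was left out. The IGF-binding genes Igfbp2 and Igfbp6 were lower, with calls that the GC correction ended. The call of Igfbp2 was lost whichever of the 6 libraries was left out, and that of Igfbp6 without iMPC replicate 1 or 3 or day 10 replicate 1 or 3.

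Calls among imprinted and homeobox genes rest on small lists. Of 15 imprinted genes, 2 were lower in both fits. Of all genes tested 6.24% were lower without the correction and 3.35% with it. Nnat, which encodes neuronatin, had 20.1, 30.5 and 44.4 CPM in iMPCs and 488, 364 and 85.1 CPM on day 10 (log2 fold change -3.30, SE 0.86), while sorted iMPCs had 624 ± 94.1 CPM (SD, n = 3). Phlda2, a growth suppressor of the placenta, had 0.596, 0.536 and 0.494 CPM on day 10 and at most 2 reads per library in iMPCs, at least 6.58-fold lower by the floor. Of the 18 neural homeobox genes, 8 were tested and 1 was lower. Lhx3, a factor of motor neurons and the pituitary, had 23.8, 11.4 and 1.17 CPM on day 10 and 0.11, 0 and 0 CPM in iMPCs (adjusted p 0.0033), and was not called by DESeq2. On day 6 with F/R/C its mean was 0.459 ± 0.795 CPM and 10.1 ± 10.5 CPM on day 8 (SD, n = 3 each). Dbx1, a factor of spinal interneurons, had 14.9, 8.37 and 46.0 CPM in iMPCs and 13.3, 18.9 and 17.8 CPM on day 10 and was not called.

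Few cell cycle genes were called. None of 12 mitosis genes was called. Their mean log2 CPM ranged from 5.62 to 6.64 in iMPCs and from 5.37 to 6.52 on day 10. All 14 DNA replication genes had negative fold changes (median -0.61), and 1, the licensing factor Cdt1, was called lower (11.6, 23.9 and 21.5 CPM against 62.4, 49.8 and 36.4 CPM) until the GC correction. Its call was also lost without iMPC replicate 1 and without day 10 replicate 1. Of 12 CDK inhibitors and cyclins, Cdkn1b, which encodes p27, was higher (log2 fold change 1.05), and its call was lost with the correction, without iMPC replicate 2 or 3 and without day 10 replicate 2. Of 10 p53 targets, the apoptosis gene Pmaip1 was higher in both fits (195, 264 and 123 CPM against 49.1, 40.9 and 77.7 CPM), and Bax was lower until the correction. No member of the ATF4 or interferon list was called without the correction.

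No fibroblast gene was called. Of 12 fibroblast genes 6 fold changes were positive and 6 negative, and their summed level was 2883 to 4666 CPM in iMPCs and 1447 to 5470 CPM on day 10, so the day 10 libraries spread more widely. Col1a1, a chain of the main fibrillar collagen, had 264, 252 and 227 CPM in iMPCs and 689.8, 306.5 and 1792 CPM on day 10, with no overlap and no call (adjusted p 0.069). Pdgfra, a receptor of mesenchymal cells, had 44.3, 509 and 13.2 CPM in iMPCs and 35.5, 6.43 and 68.5 CPM on day 10. Decorin (Dcn), chosen after its values were seen, had 23.5, 511 and 19.5 CPM against 25.0, 10.5 and 84.2 CPM. For Pdgfra and Dcn, iMPC replicate 2 was the highest of all 6 libraries. That replicate correlated with the other iMPC libraries at 0.966 and 0.957 across genes, and they with each other at 0.979. Without it 366 genes were higher and 896 lower, and 11 hypoxia and 7 glycolysis genes were called higher. In the matrix group, Lox, the collagen crosslinking enzyme, was higher in both fits (207, 94.3 and 64.8 CPM against 25.8, 11.9 and 35.2 CPM), without a call when iMPC replicate 1 or day 10 replicate 2 was left out. The basement membrane collagen Col4a2 was lower until the correction, and its call was lost without any 1 of the iMPC libraries and without day 10 replicate 1.

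Markers of cells from outside the lineage were low in some lists and not in others. The 10 endothelial markers summed to 4.35 to 6.23 CPM in iMPCs and 5.26 to 8.86 CPM on day 10, and Emcn, an endothelial mucin with no read in iMPCs, was at least 4.95-fold lower. Macrophage and blood cell markers summed to 6.37 to 13.0 CPM in iMPCs and 19.2 to 97.7 CPM on day 10. Most of the latter was Laptm5, a lysosomal protein of blood cells, at 13.0, 19.9 and 90.8 CPM against 4.71, 1.64 and 5.54 CPM in iMPCs, and its call was lost without day 10 replicate 3. Cartilage and bone markers summed to 491 to 966 CPM in iMPCs and 88.3 to 266 CPM on day 10, and most of that was osteopontin (Spp1) at 926, 801 and 453 CPM against 174, 68.5 and 241 CPM. Spp1 and Runx2 were higher and Alpl was lower, all without a call after the GC correction. All 3 also lost their call without iMPC replicate 1 or 2 and without day 10 replicate 1, and Spp1 and Runx2 without day 10 replicate 2. Neuron markers summed to 87.5 to 316 CPM in iMPCs and 69.0 to 77.1 CPM on day 10, and Schwann and glial markers to 91.8 to 144 CPM and 131 to 154 CPM. The calls of the epithelial genes Krt8 and Cldn4, which were lower near 1 CPM, and of Rgs5 of pericytes, which was higher, also ended with the GC correction. Krt8 and Cldn4 lost theirs without iMPC replicate 1 or 2 or day 10 replicate 1 or 3, Cldn4 also without iMPC replicate 3, and Rgs5 without iMPC replicate 1 or 3 or day 10 replicate 1 or 2. Stmn2, a neuronal gene at 16.5, 201 and 9.44 CPM in iMPCs, was higher until the correction, and its call was lost without iMPC replicate 2 and without day 10 replicate 1 or 2. Epithelial markers summed to 7.21 to 17.8 CPM in iMPCs and 12.5 to 22.4 CPM on day 10, adipocyte markers to 10.5 to 17.0 CPM and 10.1 to 18.7 CPM, and pluripotency markers to 3.41 to 5.64 CPM and 1.87 to 9.11 CPM. Smooth muscle markers, some of which muscle cells also express, summed to 2814 to 3981 CPM and 2222 to 3296 CPM. None of the adipocyte, glial or pluripotency markers was called. Over the 10 lists without a call by edgeR, 9 of 107 members tested had an unadjusted p under 0.05, and DESeq2 and limma on TPM called 3 each. The part of such cells in the results was not tested.

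Among called genes with at least 5 CPM in the higher group, no overlap and no reads divided with another gene, the 12 with the largest fold change in each direction were named, and all 24 were also called with the GC correction. Car9, Ak4, Pvalb, Lhx3 and Myl3 of the groups above were among them. The adhesion receptor Adgrg1 had 0.712, 1.02 and 1.51 CPM in iMPCs and 54.5, 54.2 and 68.0 CPM on day 10 (adjusted p 6.0e-10, log2 fold change -5.77 with an SE of 0.46). Among the days with F/R/C it was highest on day 2, at 166 ± 34.1 CPM (SD, n = 3), and sorted iMPCs had 0.129 ± 0.115 CPM. Cd3g, a subunit of the T cell receptor complex, had 0.356, 0.141 and 0.188 CPM against 6.64, 12.3 and 52.8 CPM, and MyoD alone on day 10 had 86.0 CPM on average. Pkd2l1, a cation channel, had 0.055, 0.028 and 0.134 CPM against 13.6, 16.7 and 3.92 CPM (log2 fold change -7.18, SE 0.92). These genes were near 0 in iMPCs and present in every day 10 library, and the choice required that the groups not overlap. The motor protein Myo5b, the adrenaline-making enzyme Pnmt, the hormone gene Sct, and the neuronal genes Rtn1, Sncaip and Dpysl5 were lower by 3.96 to 5.01 on the log2 scale. Sncaip stood at 17.7 ± 4.22 CPM in sorted iMPCs, above the 1.20, 0.620 and 0.672 CPM of the bulk iMPCs. The unplaced gene CAAA01147332.1 was, like Mvk, wholly below the other 41 libraries in the 4 deepest.

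In the other direction, Pkp1, a plakophilin of cell junctions, had 7.50, 1.72 and 11.4 CPM in iMPCs and 0, 0.146 and 0.353 CPM on day 10 (adjusted p 5.1e-04, log2 fold change 5.29 with an SE of 1.02). Apelin (Apln), a secreted peptide that hypoxia is known to induce, had 13.3, 29.9 and 9.65 CPM against 0.994, 0.536 and 1.20 CPM (log2 fold change 4.25, SE 0.96). Mgarp, a mitochondrial protein, had 16.1, 14.5 and 12.3 CPM against 0.795, 0.390 and 3.25 CPM, without a call when day 10 replicate 1 or 2 was left out. The groups did not overlap in any of these genes, which the choice required. The choline transporter Slc5a7, the glucuronyltransferase B3gat1, the costimulatory receptor Cd28, the heparan sulphate enzyme Ndst3, Tcp11x2 and the antisense transcript Srrm4os rose by 2.99 to 4.06 on the log2 scale. Ndst3 had 16.4 CPM in iMPC replicate 2 and at most 2.44 CPM in the others, and its call was lost without that library. The calls of B3gat1 and Tcp11x2 were lost without day 10 replicate 1 or 2.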

How the data were processed

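Bulk RNA-seq libraries were stranded, poly-A selected and read from a single end, per the labels' protocols. The submitters' processing notes name bcl2fastq 2.19, Trimmomatic 0.36, kallisto 0.44, edgeR 3.28 and GRCm38.p6, and the transcript release is not given in the sources used here. The authors' deposited expected counts (kallisto estimated counts) are not normalised and divide reads among transcripts, and their TPM values keep no depth.

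Estimated counts were summed per gene over 121104 of 121843 transcripts matched to GENCODE M21 and rounded. They were fitted with edgeR 4.0.16 in R 4.3.3 (TMM, filterByExpr, glmQLFit, glmQLFTest, Benjamini-Hochberg) over all 45 libraries with 1 coefficient per group and no replicate block, leaving 30 residual degrees of freedom. The floor was 3 reads per library, for counting error alone, and folds against it use the mean of the higher group. Of the called genes, 598 had whole counts (within 0.05) in fewer than 90% of libraries, since reads were divided with another gene. The GC correction subtracts from each library a spline (6 degrees of freedom) of log2 CPM deviation on transcript GC content, and was chosen after seeing the data. TPM (pseudocount 1) was tested with limma 3.58.1 as an alternative, as was DESeq2 1.42.0. On simulated data with 200 of 17121 genes changed 4-fold, 173 were called, 169 of them changed ones (84.5% of those changed) and 4 false. This simulation put no GC trend into the iMPC libraries and changed only well-covered genes. Its false calls thus do not measure those that the GC imbalance could bring.

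Named genes are Pax7, Myod1, Myog, the 12 called genes with the largest change each way (at least 5 CPM in the higher group, no overlap, counts whole in at least 90% of libraries, no predicted genes or pseudogenes, Xist or Y-linked genes) and up to 4 members per list by p (2 in lists with no call). Further members of the hypoxia and glycolysis lists, Id3, Cox7a1, Myh1, Myh4, Dcn, Dbx1, Mymk and others were chosen after their values were seen. Some called members that count in their lists are not reported here by name. The members and lists were chosen with earlier results of these data known. In both groups replicate 3 differed in sex from replicates 1 and 2, so it came from another animal. Nothing says that replicates 1 and 2 came from separate animals. The p-values measure the spread between libraries within all 15 groups of the fit, not within these 2 alone, and it may be technical in part. Replicates correlated at 0.957 to 0.979, their chi-square over its degrees of freedom was 36.1 to 126, and each counted once.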

Additional observations from a re-analysis of the deposited data

How the results depend on the processing

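The 3 bulk iMPC libraries are the deepest together with 1 myoblast library and share its GC balance, so depth, GC balance and group cannot be told apart. With only the 3 bulk iMPC libraries thinned to 22.5 M reads, 1621 genes were called. Thinning takes reads at random and so leaves the GC balance as it was. The GC correction, chosen after seeing the data, called 1011 genes (430 higher, 581 lower), 365 with the 6 libraries alone (163 higher, 202 lower) and 585 without iMPC replicate 2 (263 higher, 322 lower). No minimum fold gave 3549 genes (1555 higher, 1994 lower), and a minimum log2 fold change of 2 gave 745 (231 higher, 514 lower), with 5 hypoxia and 3 glycolysis genes. With the 6 libraries alone 1212 genes were called, 341 higher and 871 lower. DESeq2 called 1881 genes, RLE size factors 1680, no filter 1449 and limma on TPM 1275. Leaving out 1 library at a time gave 1134 to 1909 genes, 241 to 788 higher and 893 to 1121 lower, and 11 to 12 hypoxia and 6 to 8 glycolysis genes. The higher calls were fewest without day 10 replicate 2 (241), and numbered 353 without day 10 replicate 1 and 366 without iMPC replicate 2. Of 91 called genes among those named, 56 kept their call in all 6 of these fits. The log2 fold change of Dkk2 ran from -0.10 (without iMPC replicate 2) to 4.36 (without day 10 replicate 3) in these fits, and was -0.29 with the GC correction and without iMPC replicate 2. The cause was not tested.

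Same-numbered libraries deviated with correlations of -0.0246, -0.135 and 0.04, so the numbers were not taken to pair the samples. A replicate block over all libraries called 2042 genes. With the 6 libraries alone the block called 0 genes, so 0 higher, 0 lower, 0 hypoxia and 0 glycolysis genes, with 2 residual degrees of freedom and 4007 genes at an unadjusted p under 0.05 in edgeR's test.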
